A study of Homo sapiens with 12 samples.

Results

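The unfolded protein response and the amino acid response were examined through 40 genes of the 17818 in the deposited table. The genes were listed by their known roles: stress sensors, the transcription factors downstream of them, and genes for amino acid synthesis and uptake, tRNA charging and protein folding in the endoplasmic reticulum (ER). The list also holds VEGFD, a lymphatic growth factor outside these roles. The choice was made with earlier results of these data known. All 40 genes were found in the table by gene identifier.

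RNA was sequenced from SW480 and HCT116, established human colon cancer lines. Each line carried either a control vector (labelled NC) or overexpressed USP51, a ubiquitin-specific protease, with 3 libraries in each of the 4 groups (SW480 control, SW480 USP51, HCT116 control, HCT116 USP51). All cells were grown in DMEM with fetal bovine serum, and the labels list no agent that induces ER stress or withholds amino acids. The labels do not say which promoter drove USP51, whether the cells were clones, or whether replicates were separate cultures.

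Every value given here is the authors' mean of a group. No replicate spread, n or p-value can be attached to it, and a difference between 2 means was not tested against the spread between replicates. The mean columns carry a letter C or E, read here as control and USP51. All directions rest on that reading. Mean totals were 15506686 to 15920306 estimated counts per group. The level of USP51 itself, in TPM (transcript abundance per length, scaled to the same total in every group), was 0.513 (control) and 25.7 (USP51) in SW480, and 0 and 40.8 in HCT116. Of 8 epithelial markers, 7 reached 1 TPM in every group, with summed levels of 6185.0 to 11473.8 TPM. One fibroblast marker of the 5 in the table, 1 or 2 of 6 leukocyte markers and 0 of 4 endothelial markers reached 1 TPM. The summed level of the fibroblast markers was 10.1 TPM in HCT116 controls and 15.4 TPM with USP51, nearly all of it COL1A1 (9.95 and 15.1 TPM). The part of this level in the HCT116 values was not tested.

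Misfolded protein in the ER is sensed by 3 membrane proteins, encoded by ERN1 (IRE1), EIF2AK3 (PERK) and ATF6. IRE1 removes a short intron from XBP1 mRNA, and XBP1 and ATF6 then switch on chaperone and degradation genes. PERK, like the amino acid sensor GCN2, phosphorylates the translation factor eIF2, which slows protein synthesis while ATF4 mRNA is translated more. ATF4 switches on genes that make, import and charge amino acids, and with DDIT3 (CHOP) can lead to cell death.

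The 14 genes for amino acid synthesis, uptake and tRNA charging lay mostly slightly above control with USP51 in SW480 and mostly slightly below it in HCT116. The 12 genes for ER folding and ER-associated degradation mostly lay the other way in each line. On the TPM scale this was the side on which most genes lay, which did not hold under every scaling. Of all genes measured, 61.1% lay below control in SW480 and 60.8% above it in HCT116 on the TPM scale. The largest single differences in response were those of ATF3 and CHAC1. Nearly all of these differences were small: no gene of the 38 measured in SW480 reached a 1.5-fold difference, and ATF3 alone of 39 did in HCT116. A response is given as log2((TPM with USP51 + 1) / (control TPM + 1)), for genes that reached 1 TPM in either group compared. This scale understates differences of genes at low levels. Beside it stands the ratio of counts per total count, with a 95% exact interval that covers counting error only. In bulk RNA, fewer cells making a transcript and less of it per cell cannot be told apart.

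**Figure D1:**
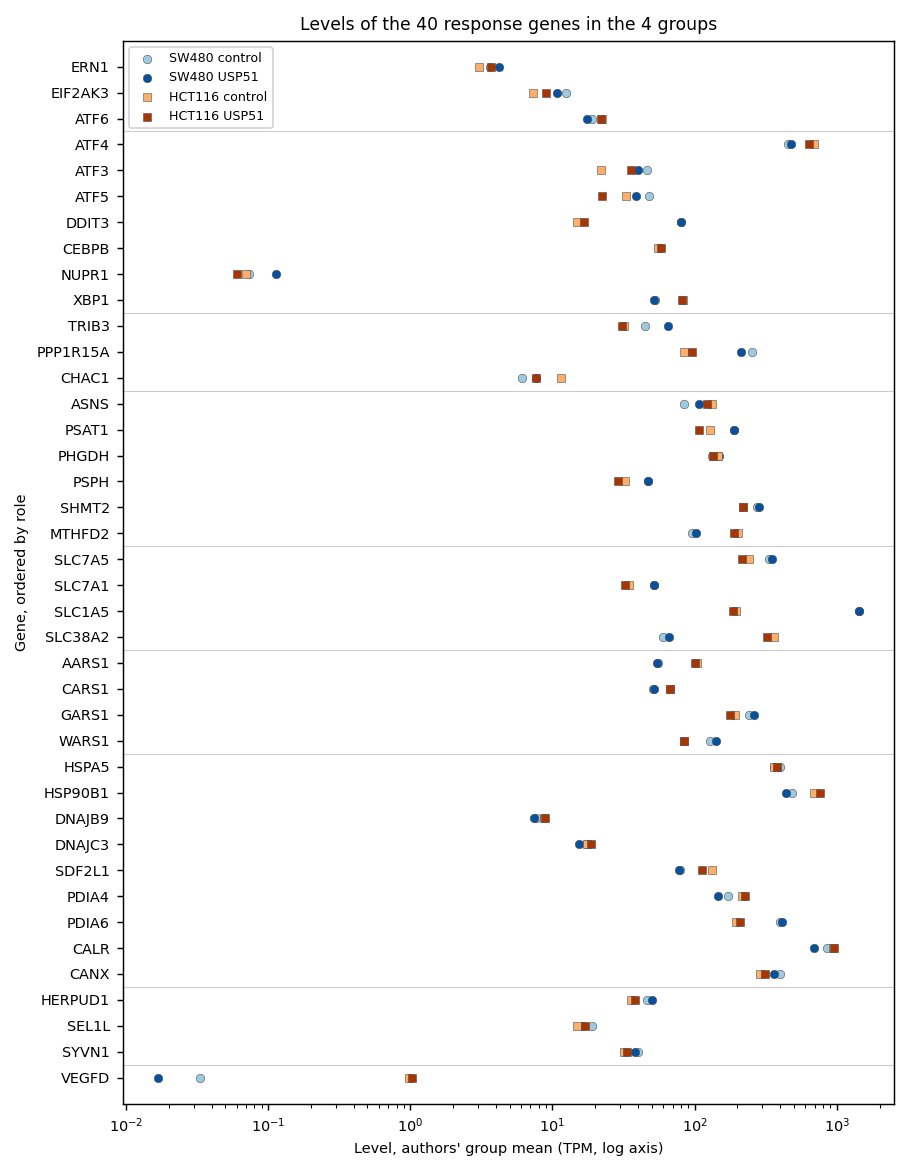
Level of each of the 40 genes in the 4 groups, as the authors' group mean in TPM on a log axis, ordered by role. The levels run from NUPR1 and VEGFD, near or below 1 TPM, to SLC1A5 at 1441.2 TPM in SW480 controls. SLC1A5, DDIT3 and SLC38A2 show wide gaps between lines, as does the barely detected VEGFD.

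The 3 sensors had low to moderate transcript levels. ERN1, which encodes IRE1, averaged 3.63 (control) and 4.18 TPM (USP51) in SW480, against 3.05 and 3.71 TPM in HCT116. Its count ratio was 1.16 (0.999 to 1.36) in SW480 and 1.19 (1 to 1.41) in HCT116, so the USP51 mean was higher in both lines with intervals that reach or touch equality. EIF2AK3, which encodes PERK, stood at 12.5 and 10.8 TPM in SW480, a ratio of 0.892 (0.788 to 1.01). Its HCT116 means were 7.28 and 9.03 TPM, a ratio of 1.2 (1.03 to 1.4), and its response was 0.48 higher on the log2 scale than in SW480. The EIF2AK3 transcripts differed in direction in HCT116. NM_004836, the most abundant in controls, stood at 205 and 171 estimated counts, a ratio of 0.851 (0.691 to 1.05). NM_001313915 stood at 108 and 179 counts, and XM_017005376 at 5.87 and 25.4. The higher gene total thus did not hold for every transcript, and the division of reads between them is an estimate. ATF6, the ER-anchored transcription factor, differed little, with means of 19 and 17.6 TPM in SW480 against 22.4 and 22.1 TPM in HCT116.

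ATF4, the central factor of the amino acid response, had the highest level of the 7 transcription regulators in every group. It averaged 451.0 TPM (control) and 473.6 TPM (USP51) in SW480, against 697.1 and 639.6 TPM in HCT116. The ratio was 1.08 (1.04 to 1.12) in SW480 and 0.906 (0.878 to 0.934) in HCT116, small differences in opposite directions. These are transcript levels, and ATF4 protein, which is set largely by translation, was not measured here. Named pseudogene copies of ATF4 exist and have no row in the table, and how their reads were assigned is not given in the sources used here.

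ATF3 (chr1:212565407-212620777, GRCh38.p14), a stress-induced partner and target of ATF4, averaged 46.2 (control) and 40.1 TPM (USP51) in SW480, against 22.1 and 35.6 TPM in HCT116. The HCT116 control was the lowest of the 4 groups, and the HCT116 USP51 mean lay closer to the SW480 ones. The HCT116 log2 ratio was 0.66, with a count ratio of 1.58 (1.4 to 1.79). It was the only gene of the set to reach 1.5-fold in HCT116, where 1.96% of 12393 genes measured were that much higher. In SW480 the ratio was 0.911 (0.826 to 1.01), and the responses differed by 0.87 on the log2 scale. Among 11332 genes measured in both lines, 3.95% had a response at least 1.5-fold higher in HCT116.

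The ATF3 transcripts differed in direction in SW480. The most abundant, NM_001674, stood at 623 counts in SW480 controls and 485 with USP51, a ratio of 0.764 (0.677 to 0.862). NM_001040619 stood at 140 and 201 counts, a ratio of 1.41 (1.13 to 1.76). In HCT116 both lay above control, at ratios of 1.6 (1.34 to 1.91) and 1.47 (1.19 to 1.82). Reads shared by transcripts of a gene were divided between them by estimation, so these values are less certain than the gene totals.

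ATF5, an ATF4-related factor linked to mitochondrial stress, lay below control in both lines. It averaged 48.1 and 39 TPM in SW480, a ratio of 0.841 (0.764 to 0.926), and 32.7 and 22.3 TPM in HCT116, a ratio of 0.678 (0.598 to 0.768). Its span overlaps those of IL4I1 and NUP62, and whether counting used strand is not given in the sources used here. DDIT3, which encodes the pro-apoptotic factor CHOP, hardly differed with USP51, with means of 79.6 and 80.4 TPM in SW480 against 15 and 16.8 TPM in HCT116. CEBPB, a bZIP factor that pairs with ATF4, stood between 55.7 and 58.3 TPM in all 4 groups. NUPR1, a small stress-induced nuclear protein, had means of 2.99 to 6.33 counts and was too low for a ratio.

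XBP1, the transcription factor made active by IRE1, was level at the gene total. It averaged 52.8 (control) and 51.8 TPM (USP51) in SW480, against 83.5 and 82.1 TPM in HCT116. The table lists the unspliced and the spliced transcript apart, and these differ by a coding stretch of 26 bases within exon 4 (chr22:28796128-28796153, minus strand, GRCh38, GENCODE 29). The stretch is shown because its presence or absence is the readout of IRE1 activity. Capitals mark the bases missing from the spliced transcript, with 20 bases on each side. The same product arises if the stretch is shifted by up to 6 bases, and the leftmost placement is printed.
XBP1 intron: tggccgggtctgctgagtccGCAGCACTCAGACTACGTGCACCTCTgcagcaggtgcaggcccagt

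The spliced transcript made up 16.6% of XBP1 counts in SW480 controls (95% exact interval 14.1 to 19.3) and 22.8% with USP51 (20 to 25.6). In HCT116 it made up 15.9% in controls (14 to 17.9) and 9.76% with USP51 (8.18 to 11.5). The intervals of the control groups overlapped, and the USP51 means lay on opposite sides of them. The spliced transcript stood at 141 and 199 counts in SW480, a ratio of 1.39 (1.11 to 1.73), and at 215 and 125 counts in HCT116, a ratio of 0.593 (0.472 to 0.743). The unspliced transcript differed less, with ratios of 0.937 (0.842 to 1.04) and 1.04 (0.955 to 1.13). Only reads over the splice junction or the 26 bases tell the transcripts apart. The deposited counts are estimates, and the intervals do not cover the error of dividing reads between transcripts.

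**Figure D2:**
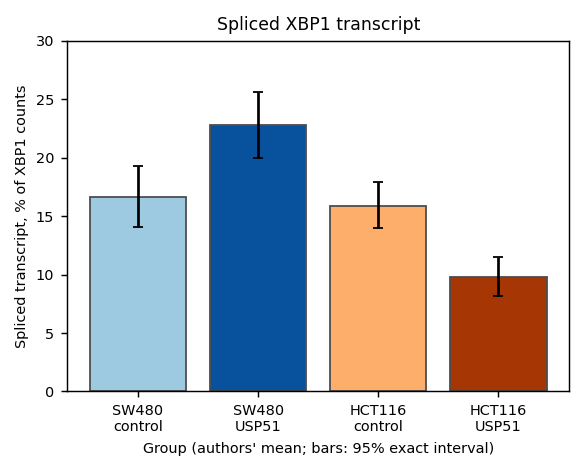
Spliced XBP1 transcript as a percentage of the gene's estimated counts in the 4 groups. Bars are the authors' means with 95% exact intervals for counting error. The share was 22.8% with USP51 in SW480 and 9.76% in HCT116, above and below controls at 16.6% and 15.9%.

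Of the 3 feedback genes, TRIB3 showed the largest SW480 response of the 38 genes measured. TRIB3 (chr20:380760-397559, GRCh38.p14), a pseudokinase that restrains ATF4 and CHOP, averaged 44.5 (control) and 65.5 TPM (USP51) in SW480, a log2 ratio of 0.55 and a count ratio of 1.5 (1.38 to 1.63). It lay just short of 1.5-fold on the TPM scale. In HCT116 it stood at 31.8 and 30.9 TPM, a ratio of 0.955 (0.855 to 1.07), and the response was 0.59 lower than in SW480. In SW480 its major transcript NM_021158 stood at 574 and 831 counts, a ratio of 1.42 (1.28 to 1.58). NM_001301188 stood at 154 and 321 counts, a ratio of 2.05 (1.68 to 2.5), so both lay above control.

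PPP1R15A, which encodes GADD34, a phosphatase subunit that restores eIF2, stood at 252.9 and 213.5 TPM in SW480, a ratio of 0.87 (0.837 to 0.904). Its HCT116 means were 84.2 and 96.3 TPM, a ratio of 1.12 (1.05 to 1.2). CHAC1, which degrades glutathione, stood at 6.11 and 7.69 TPM in SW480, a ratio of 1.3 (0.971 to 1.76). In HCT116 it stood at 11.4 and 7.63 TPM, a ratio of 0.672 (0.519 to 0.866). With USP51 the lines were thus at nearly the same CHAC1 level, and the response was 0.82 lower in HCT116, the lowest difference of the set. TRIB3 and CHAC1 were the genes whose response was at least 1.5-fold lower in HCT116, as in 0.459% of all genes.

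Among the 6 amino acid and folate enzymes, ASNS differed most in SW480, and PSAT1 in HCT116. ASNS, asparagine synthetase, stood at 84.1 and 106.7 TPM in SW480, a log2 ratio of 0.34 and a count ratio of 1.28 (1.2 to 1.37). The HCT116 means were 132.3 and 123.1 TPM, a ratio of 0.916 (0.865 to 0.97). Its difference between lines, 0.44 lower in HCT116, was the largest of the 14 genes of the amino acid branch. PHGDH, the first enzyme of serine synthesis, averaged 133.2 (control) and 148.7 TPM (USP51) in SW480, against 145.7 and 135.3 TPM in HCT116. Its ratios were 1.15 (1.09 to 1.22) and 0.91 (0.858 to 0.964), on opposite sides of equality.

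The other enzymes differed less than ASNS in SW480. PSAT1, the second enzyme of serine synthesis, averaged 188.7 and 187.9 TPM there, and 127.3 and 107.4 TPM in HCT116, a ratio of 0.828 (0.781 to 0.877). PSPH, which releases serine, stood at 46.7 and 46.8 TPM and at 32.3 and 28.8 TPM, with an HCT116 ratio of 0.873 (0.777 to 0.98). SHMT2, a mitochondrial enzyme that turns serine into glycine, averaged 273.8 and 286.1 TPM in SW480 and 220.0 TPM in both HCT116 groups. MTHFD2, a mitochondrial folate enzyme, averaged 95.7 (control) and 102.0 TPM (USP51) in SW480, against 201.5 and 187.9 TPM in HCT116, with ratios of 1.11 (1.05 to 1.17) and 0.928 (0.892 to 0.965). Named pseudogene copies of ASNS, PSAT1, PSPH and MTHFD2 have no row in the table, and their effect on these values was not tested.

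All 4 transporters had a lower mean with USP51 in HCT116, with intervals below 1, against 39.2% and 11.7% of all genes. In SW480, 3 of 4 had a higher mean, against 38.8% of all genes. The interval lay above 1 there for 2 of the 4, against 13.6% of all genes. SLC7A5, which imports large neutral amino acids, averaged 334.9 (control) and 353.0 TPM (USP51) in SW480, against 241.4 and 214.2 TPM in HCT116. SLC38A2, a carrier induced by amino acid lack, averaged 59.7 (control) and 65.8 TPM (USP51) in SW480, against 363.5 and 321.6 TPM in HCT116. Their ratios were 1.09 (1.06 to 1.11) and 1.14 (1.08 to 1.2) in SW480, and 0.871 (0.847 to 0.896) and 0.867 (0.848 to 0.886) in HCT116. SLC7A1, a carrier of cationic amino acids, and SLC1A5, a glutamine carrier, differed by at most 0.09 on the log2 scale in either line.

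The 4 tRNA synthetases, which attach alanine (AARS1), cysteine (CARS1), glycine (GARS1) and tryptophan (WARS1) to their tRNAs, differed by at most 0.13 on the log2 scale between USP51 and control in either line. GARS1 stood at 239.5 and 262.9 TPM in SW480, a ratio of 1.13 (1.09 to 1.17), and at 191.6 and 176.7 TPM in HCT116, a ratio of 0.905 (0.866 to 0.945). WARS1 averaged 127.9 and 140.3 TPM in SW480 and 84.7 TPM in both HCT116 groups. AARS1 and CARS1 differed by at most 0.05 in either line.

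Of the 14 genes of the amino acid branch, 11 had a higher USP51 mean in SW480 and 3 a lower one, while 38.8% of 12175 genes measured lay above control there. The median log2 ratio was 0.07, against -0.04 for all genes. The interval lay above 1 for 8 and below 1 for 0, against 13.6% and 14.2% of all genes. In HCT116, 2 lay above control and 12 below, while 39.2% of 12393 genes lay below. These counts include genes whose log2 ratio rounded to 0.00: PSPH (above) in SW480, and WARS1 (above) and SHMT2 (below) in HCT116. The median was -0.10 against 0.04 for all genes, and the interval lay below 1 for 11 and above 1 for 0, against 11.7% and 17.1% of all genes. All 14 responses were lower in HCT116 than in SW480, by a median of 0.18 on the log2 scale, while 35% of 11332 genes were lower. The difference between lines was not tested, and these shares describe a list chosen with earlier results of these data known.

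Regulatory sequence is printed for ASNS, which had the largest SW480 response among the enzymes, and for the feedback gene CHAC1, whose HCT116 response was the lowest relative to SW480. Each is the 250 bases before a transcript start listed in RefSeq (GRCh38.p14), which for ASNS lies inside the span of the gene (chr7:97851677-97928441). The printed stretches are ASNS at chr7:97872409-97872658, minus strand, and CHAC1 at chr15:40953221-40953470, plus strand. Capitals mark the C/EBP-ATF response element TGATGNAA, the kind of site that ATF4 and C/EBP factors bind. In CHAC1 it lies on the reverse strand.
ASNS: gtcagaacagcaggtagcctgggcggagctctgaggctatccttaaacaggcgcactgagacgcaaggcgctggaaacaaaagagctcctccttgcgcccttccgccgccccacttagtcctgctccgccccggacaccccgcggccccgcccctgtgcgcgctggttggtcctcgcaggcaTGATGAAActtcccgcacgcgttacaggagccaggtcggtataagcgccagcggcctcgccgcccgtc
CHAC1: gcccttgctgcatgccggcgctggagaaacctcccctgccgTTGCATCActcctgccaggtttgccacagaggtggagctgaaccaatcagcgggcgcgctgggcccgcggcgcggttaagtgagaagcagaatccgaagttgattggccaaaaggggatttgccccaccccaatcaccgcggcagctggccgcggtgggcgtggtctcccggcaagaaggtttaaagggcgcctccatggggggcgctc

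The letters TGATGNAA were searched on both strands, from 250 bases before to 50 bases after the start of 27305 promoters, 1 for each gene, the first listed where a gene had several. Promoters were found for 37 of the 40 genes, and NUPR1, PSPH and SHMT2 were not matched. The element was present in 7 of the 37 (18.9%), those of AARS1, ASNS, ATF3, CARS1, CHAC1, HERPUD1 and SLC7A1, against 1003 of 27305 promoters (3.67%). The SW480 responses of these 7 ran from -0.20 (ATF3) to 0.34 (ASNS). A match describes letters, not binding. Since the genes were listed for known roles in these pathways, the higher share is no test.

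The 9 ER chaperones and foldases mostly lay below control in SW480 and above it in HCT116. CALR, calreticulin, a calcium-binding chaperone of glycoproteins, had the largest SW480 difference of these. It averaged 860.3 (control) and 691.5 TPM (USP51) there, a log2 ratio of -0.31 and a count ratio of 0.829 (0.809 to 0.849). In HCT116 it stood at 935.1 and 953.2 TPM, a ratio of 1 (0.978 to 1.02). Its membrane-bound relative CANX, calnexin, averaged 399.0 (control) and 364.0 TPM (USP51) in SW480, against 288.0 and 314.5 TPM in HCT116. The ratios were 0.938 (0.919 to 0.959) and 1.07 (1.05 to 1.1), on opposite sides of equality.

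HSPA5, the main ER chaperone BiP, showed the same opposition at smaller size. It stood at 397.1 and 362.9 TPM in SW480, a ratio of 0.943 (0.921 to 0.964), and at 362.6 and 382.6 TPM in HCT116, a ratio of 1.03 (1.01 to 1.06). HSP90B1, the ER member of the HSP90 family, averaged 481.6 (control) and 442.8 TPM (USP51) in SW480, against 686.9 and 764.9 TPM in HCT116, with ratios of 0.948 (0.925 to 0.972) and 1.09 (1.07 to 1.11). PDIA4, a disulfide isomerase, stood at 170.5 and 146.6 TPM in SW480, a ratio of 0.887 (0.849 to 0.925). In HCT116 it stood at 213.9 and 224.5 TPM, a ratio of 1.03 (0.992 to 1.07).

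The remaining chaperones did not all take this pattern. PDIA6, another disulfide isomerase, lay above control in both lines, at 399.5 and 413.6 TPM and at 196.4 and 207.3 TPM. SDF2L1, a cofactor of BiP, averaged 79 (control) and 78.1 TPM (USP51) in SW480, against 131.9 and 112.2 TPM in HCT116, a ratio of 0.835 (0.75 to 0.93). It was the only chaperone below control in HCT116. DNAJC3 and DNAJB9, co-chaperones of BiP, stood between 7.44 and 18.7 TPM, with every interval including 1.

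ER-associated degradation carries misfolded proteins out of the ER for destruction. SEL1L, the adaptor of the ubiquitin ligase complex, stood at 18.9 and 16.4 TPM in SW480, a ratio of 0.915 (0.846 to 0.989), and at 14.8 and 17 TPM in HCT116, a ratio of 1.11 (1.02 to 1.21). Its most abundant transcript, NM_005065, lay nearer equality, with estimated ratios of 0.984 (0.895 to 1.08) in SW480 and 1.04 (0.931 to 1.15) in HCT116. SYVN1, the ligase HRD1, stood at 39.9 and 37.8 TPM and at 31.9 and 33.6 TPM, with both intervals including 1. HERPUD1, a stress-induced part of the complex, lay above control in both lines, with means of 46 and 50 TPM in SW480 against 35.9 and 38.3 TPM in HCT116. Its SW480 ratio was 1.12 (1.04 to 1.21).

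Of these 12 ER genes, 2 lay above control and 10 below in SW480, where 61.1% of all genes lay below. The median was -0.13 against -0.04 for all genes, and the interval lay below 1 for 6 and above 1 for 2, against 14.2% and 13.6% of all genes. In HCT116, 11 lay above control and 1 below, where 60.8% of all genes lay above. The median was 0.08 against 0.04 for all genes, and the interval lay above 1 for 4 and below 1 for 1, against 17.1% and 11.7% of all genes. Responses were higher in HCT116 than in SW480 for 10 of 12, by a median of 0.22, while 65% of all genes were higher. SDF2L1 and HERPUD1 were the exceptions on the TPM scale. By count ratio PDIA6 was a further exception, at 1.07 in SW480 and 1.03 in HCT116. In both lines this branch lay on the side of most genes on the TPM scale, and the amino acid branch on the other side.

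**Figure D3:**
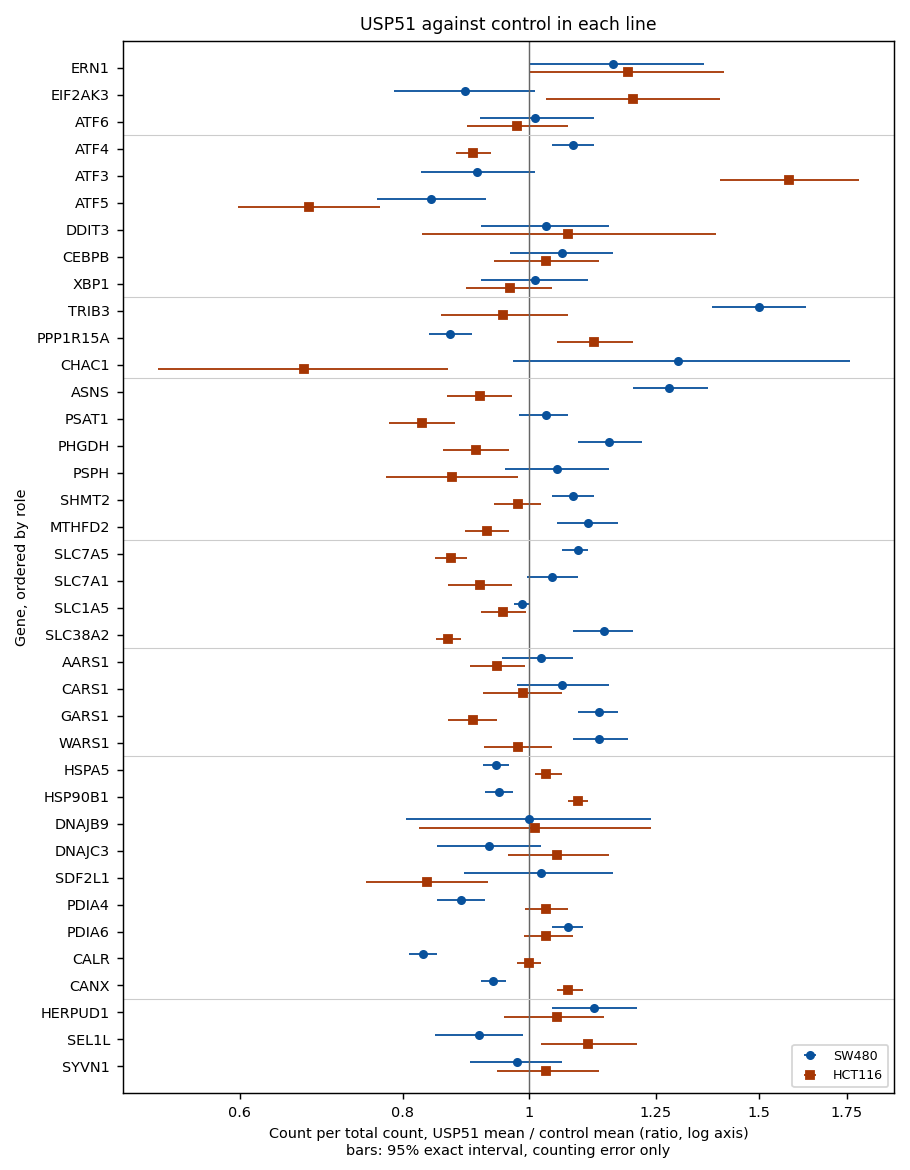
USP51 against control in each line for the 38 genes measured in both, as the ratio of counts per total count on a log axis, with 95% exact intervals for counting error. In the amino acid branch the HCT116 points lie left of the SW480 points, and in the ER branch they lie mostly to the right. ATF3 in HCT116 lies at 1.58 and TRIB3 in SW480 at 1.5.

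Promoters of 3 ER genes are shown because they carry ER stress response elements, the sites that ATF6 and XBP1 are known for. Each is the 250 bases before the gene's start in RefSeq (GRCh38.p14), HSPA5 at chr9:125241344-125241593, minus strand, HSP90B1 at chr12:103930160-103930409, plus strand, and HERPUD1 at chr16:56931892-56932141, plus strand. Capitals mark the ER stress response element in HSPA5 and in HSP90B1, which has a copy on each strand. In HERPUD1 the first run of capitals is TGATGNAA on the reverse strand, and the other is the shorter ER stress response element II.
HSPA5: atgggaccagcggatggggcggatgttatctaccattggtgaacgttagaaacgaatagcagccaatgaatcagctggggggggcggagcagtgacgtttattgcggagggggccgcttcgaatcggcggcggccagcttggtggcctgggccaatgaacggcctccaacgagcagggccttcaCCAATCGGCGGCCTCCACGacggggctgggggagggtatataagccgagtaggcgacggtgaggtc
HSP90B1: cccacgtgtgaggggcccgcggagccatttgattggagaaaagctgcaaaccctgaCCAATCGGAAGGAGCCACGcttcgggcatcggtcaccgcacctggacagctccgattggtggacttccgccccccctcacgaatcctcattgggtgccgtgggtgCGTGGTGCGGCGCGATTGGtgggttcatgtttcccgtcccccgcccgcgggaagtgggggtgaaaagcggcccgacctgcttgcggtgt
HERPUD1: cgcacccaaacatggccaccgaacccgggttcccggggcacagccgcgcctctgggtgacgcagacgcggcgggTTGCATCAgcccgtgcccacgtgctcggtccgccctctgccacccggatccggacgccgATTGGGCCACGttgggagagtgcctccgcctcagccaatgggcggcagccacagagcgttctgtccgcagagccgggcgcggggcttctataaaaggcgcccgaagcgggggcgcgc

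The ER stress response element was found in 5 of the 37 promoters (13.5%), those of CALR, CANX, HSP90B1, HSPA5 and XBP1, against 22 of 27305 (0.0806%). The element II was found in HERPUD1 and SDF2L1 (5.41%), against 15 of 27305 (0.0549%). The unfolded protein response element TGACGTGG was found in 0 of 37 and in 217 of 27305 promoters (0.795%). Both strands were searched, and no matches of different elements overlapped. The genes were listed for known roles in these pathways, so the shares describe the list and are no test of it.

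VEGFD was barely detected, at 0.67 and 0.33 counts in SW480 and at 18.7 counts in each HCT116 group. Its HCT116 ratio of 1.02 (0.511 to 2.04) has a wide interval at this depth.

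Over the 38 genes measured in both lines, 12 lay above control in SW480 and below it in HCT116, against 17.4% of all genes. Another 12 lay below in SW480 and above in HCT116, against 38.1% of all genes. The other 14 comprised 7 above control in both lines and 7 below in both, near the 21.2% and 23.2% of all genes. The first pattern held 9 of 14 genes of the amino acid branch and 0 of 12 ER genes, and the second held 0 and 9. Across the 38 genes the responses of the lines had Pearson's r of -0.33 and Spearman's rho of -0.42. Across 11332 genes these were 0.02 and -0.07. These describe genes, which are not independent replicates and share the libraries of each line. Over the whole set, with the branches on opposite sides, the median was 0.00 in each line, and 19 of 38 genes lay above control in SW480 and 20 of 39 in HCT116.

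**Figure D4:**
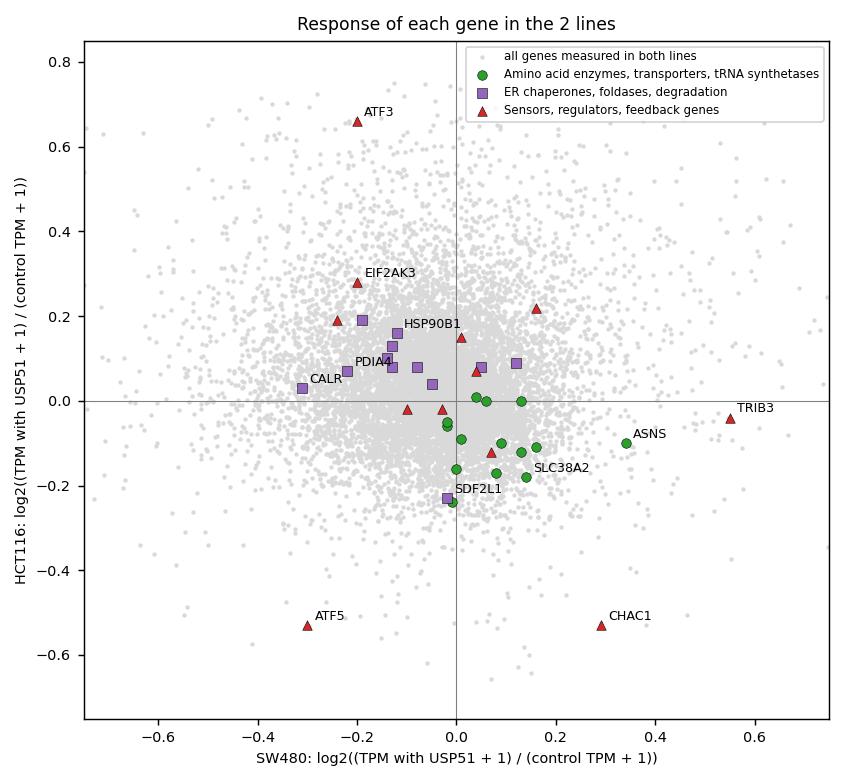
Response of each gene in SW480 (x axis) and in HCT116 (y axis), as log2((TPM with USP51 + 1) / (control TPM + 1)). Grey points are all genes measured in both lines within 0.75 of 0 on each axis. Genes of the amino acid branch gather at the lower right and ER genes at the upper left.

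Scaling bears on the counts in SW480. With counts per total count (CPM), CPM with TMM or RLE scaling factors, or FPKM, 24 or 25 of the 38 genes lay above control there instead of 19, while 50.3% to 54.5% of all genes did. In HCT116 the number was 16 to 18 of 39, while 47.7% to 53.9% of all genes lay above control. The side on which most genes lay thus depended on the scaling. Under TMM, 52.8% of all genes lay above control in SW480 and 47.7% in HCT116, the reverse of the TPM scale. Under RLE these shares were 54.5% and 48.5%. ATF6, XBP1, PSAT1, SLC1A5, AARS1, DNAJB9 and SDF2L1 changed sign in SW480 across these scalings, and CARS1, DNAJB9 and CALR did in HCT116, all at small values. All 14 genes of the amino acid branch kept the lower response in HCT116 under each scaling.

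A further 86 genes of the same pathways were listed, and 84 had a row (BCAT1 and SLC7A3 were not analysed here). Other genes linked to ATF4 lay above control in SW480 for 18 of 23 measured, with a median of 0.19, against 38.8% of all genes. In HCT116 they did for 14 of 21, with a median of 0.03, near the 60.8% of all genes. CEBPA, a bZIP factor, stood at 2.79 and 5.29 TPM in SW480, a ratio of 1.96 (1.46 to 2.67). ADM2, a peptide hormone, stood at 1.33 and 2.51 TPM there, a ratio of 1.95 (1.4 to 2.73). These were the only 2 of 81 to be 1.5-fold or more higher in SW480, against 0.534% of all genes, and 0 were that much lower, against 0.879%. In HCT116 0 of 78 reached it in either direction, against 1.96% higher and 0.145% lower.

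Of the 21 other ATF4-linked genes measured in both lines, 7 lay above control in SW480 and below it in HCT116, 4 the reverse way, and 10 above in both. Among the 7 were PYCR1 and SLC7A11. PYCR1, a proline synthesis enzyme, averaged 100.9 (control) and 128.2 TPM (USP51) in SW480, against 351.4 and 320.4 TPM in HCT116, with ratios of 1.31 (1.23 to 1.39) and 0.893 (0.86 to 0.927). SLC7A11, the cystine carrier, averaged 3.28 (control) and 3.74 TPM (USP51) in SW480, against 11.6 and 8.26 TPM in HCT116, the latter a ratio of 0.698 (0.636 to 0.765). DDIT4, an inhibitor of mTOR signalling, instead lay above control in both lines, at 22.1 and 30.3 TPM and at 46.8 and 60.9 TPM.

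Other ER folding and degradation genes lay below control for 22 of 32 in SW480, with a median of -0.08, where 61.1% of all genes lay below. In HCT116 they lay above it for 22 of 31, with a median of 0.04, where 60.8% of all genes lay above. Both counts are near those of all genes. DNAJB11, a BiP co-chaperone, stood at 173.8 and 126.3 TPM in SW480, a ratio of 0.749 (0.706 to 0.796), and at 114.6 and 112.1 TPM in HCT116. MANF, a secreted ER stress factor, stood at 257.2 and 197.3 TPM in SW480, a ratio of 0.789 (0.734 to 0.848), and had a ratio of 1 (0.926 to 1.08) in HCT116. Other tRNA synthetases lay above control for 10 of 16 in SW480, against 38.8% of all genes, and below it for 9 of 16 in HCT116, against 39.2%. Of 10 other eIF2 pathway components, 7 lay below control in SW480, against 61.1% of all genes, and 6 in HCT116, against 39.2%.

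The control groups of the lines showed larger differences than USP51 and control did within a line. These groups also serve as the controls above, so the line values and the responses are not independent. Of 38 genes measured, 5 were at least 2-fold higher in SW480 and 2 at least 2-fold lower, against 13.4% and 14.7% of 13033 genes. By direction alone, 22 were higher in SW480 and 16 lower, against 46.7% and 53.3% of all genes. The interval lay above 1 for 21 and below 1 for 14, against 38.8% and 45.1% of all genes. SLC1A5 averaged 1441.2 TPM in SW480 against 194.3 TPM in HCT116, a count ratio of 7.46 (7.25 to 7.68). DDIT3 stood at 79.6 and 15 TPM, a ratio of 5.3 (4.35 to 6.51), and its span shares 65 bases with that of MARS1. PPP1R15A stood at 252.9 and 84.2 TPM, a ratio of 3.03 (2.87 to 3.19).

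ATF3 and PDIA6 were also higher in SW480 controls, with ratios of 2.02 (1.79 to 2.27) and 2.05 (1.97 to 2.12). SLC38A2 was far lower there, at 59.7 against 363.5 TPM, a ratio of 0.165 (0.159 to 0.172). MTHFD2 had a ratio of 0.479 (0.456 to 0.503). The span of PDIA6 shares 1720 bases with that of ATP6V1C2, and the span of MTHFD2 shares 1324 bases with that of SLC4A5. ATF4 itself was lower in SW480 controls, with a ratio of 0.662 (0.64 to 0.684), and so was XBP1, with a ratio of 0.636 (0.583 to 0.694). CEBPB was level between the lines, at 56 and 55.7 TPM.

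**Figure D5:**
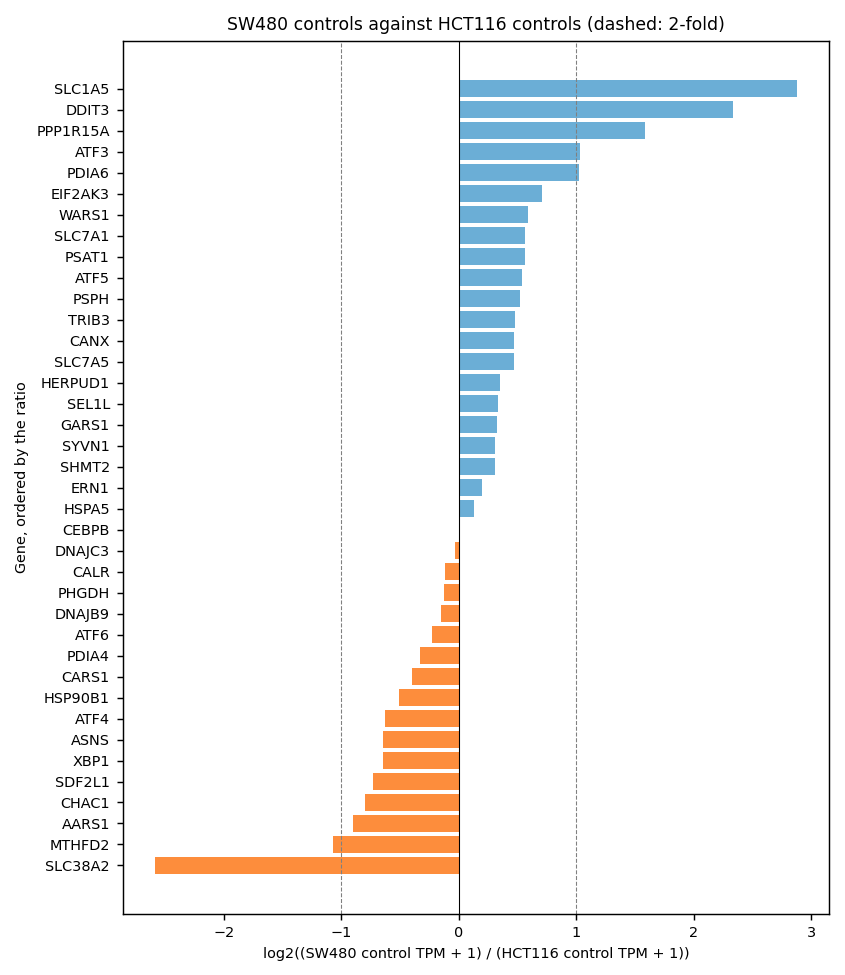
SW480 controls against HCT116 controls for the 38 genes measured, as log2((SW480 control TPM + 1) / (HCT116 control TPM + 1)), ordered by value, with dashed lines at 2-fold. SLC1A5 (2.88) and DDIT3 (2.33) lie highest and SLC38A2 (-2.59) lowest.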

How the data were processed

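The deposited table holds 84345 RefSeq transcripts of 17818 genes. Its values are the authors' estimated counts, TPM values and FPKM values, per the file headers. Group means, made by the authors, were used. The 36 single-library columns carry codes that match no label and were not used in any step, so no replicate spread, n or p-value is given. The planned edgeR tests were therefore replaced by sizes and counting intervals. TopHat, DESeq 1.32.0 and hg38 are named, without a role, per the submitters' processing notes. Which tool counted reads, and whether by strand, is not given in the sources used here.

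Transcripts were summed per gene, and 17672 identifiers had a symbol in the RefSeq table of GRCh38.p14. The response was log2 of the ratio of TPM + 1, for genes with at least 1 TPM in a compared group. Calls by size were 1.5-fold for USP51 and 2-fold between lines. Intervals are 95% exact (Clopper-Pearson) on the ratio of rounded counts per total count. They treat a mean as 1 library and leave out all but counting error, as PCR copies are no independent molecules. Scaling factors (TMM, RLE) came from edgeR 4.0.16 in R 4.3.3, and other steps used Python 3.11.15, pandas 2.3.3 and scipy 1.17.1. The calculations were checked on simulated data. Alternatives were other scalings, FPKM, a pseudocount of 0.1, a minimum of 10 TPM, curated transcripts alone and, added after seeing the data, 1.2-fold and the XBP1 share from TPM and FPKM. All 40 genes could be named, with transcripts of XBP1, ATF4 and genes past or at the fold. Transcripts of EIF2AK3 and SEL1L were named after their values were seen. Of the other pathway genes, those past the fold and a few of largest difference were named after their values were seen. The genes and lists were chosen with earlier results of these data known.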

Additional observations from a re-analysis of the deposited data

How the results depend on the processing

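No paired analysis was possible because the columns of single libraries match no label by name, and for the same reason the edgeR and DESeq2 tests and the fits leaving out each replicate were not run. Medians of both branches kept their sign in each line under every setting. In HCT116, however, several ER genes came near equality under some scalings. The lowest log2 ratios there were 0.02 for HSPA5, PDIA4, PDIA6 and SYVN1. For CANX, HSP90B1 and SEL1L they were 0.08, 0.10 and 0.12. In HCT116, 0 genes of the amino acid branch lay above control under CPM, TMM, RLE and FPKM, instead of 2. In SW480, 4 ER genes lay above control under TMM and RLE, instead of 2. Genes past 1.5-fold upward in SW480 numbered 1 under RLE and under FPKM (TRIB3, 0.59) instead of 0. With curated transcripts alone, 1 gene was past 1.5-fold downward in HCT116 (ATF5, -0.59) instead of 0. Between control groups the median was 0.41 under TMM and RLE instead of 0.25, and 1 gene was at least 2-fold lower instead of 2 (MTHFD2, -0.96). At 1.2-fold, a limit added after seeing the data, SW480 had 3 genes higher and 2 lower, HCT116 2 and 2, and the line comparison 19 and 11. Over all genes, counts past 1.5-fold upward and downward were 65 and 107 in SW480 and 243 and 18 in HCT116. They were 150, 225, 501 and 51 with a pseudocount of 0.1, and 28, 40, 83 and 11 at 10 TPM, where the line comparison gave 1071 and 1084 instead of 1741 and 1913. They were 438, 1226, 1501 and 268 at 1.2-fold, with 4540 and 5322 between lines. The SW480 upward count was 102 under TMM and 106 under RLE. FPKM gave 62 downward in SW480 and 146 upward in HCT116, and curated transcripts 162 and 48 downward. Depth limits the low genes: the median half-width of the intervals was 0.0948 on the log2 scale in SW480 and 0.0967 in HCT116.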
